A study of Mus musculus with 12 samples.

Results

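Expression of 10 genes of the hyaluronan- and proteoglycan-based matrix was examined in the inferior vena cava (IVC) of mice with an arteriovenous fistula (AVF). The 10 genes were chosen by name and family, with earlier results of these data known. They were the hyalectans Vcan and Acan, the link protein Hapln1 and the hyaluronan synthases Has1 and Has2. The others were the small leucine-rich proteoglycans (SLRP) Dcn, Bgn, Lum and Fmod and the hyaluronan receptor Cd44. Each was matched by its symbol to 1 Ensembl identifier among the 55414 genes of the count table, and all 10 passed the filter that kept 15912 genes for testing. RNA came from IVC segments of 12 wild-type C57BL/6 mice that were 10 weeks old, on postoperative day 7, and in the AVF mice the segment reached from above the fistula to below the left renal vein. In 6 mice, 3 female and 3 male, the infrarenal aorta and IVC had been punctured with a needle to join the vessels (AVF). The other 6 mice, again 3 female and 3 male, had the same operation without the puncture (sham), so laparotomy, anesthesia, analgesia and clamping of the vessels were common to both groups. Each sample was 1 mouse and 1 library.

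Hyaluronan is a long unsulfated polysaccharide that the Has enzymes make at the plasma membrane and extrude from the cell. Versican (Vcan) and aggrecan (Acan) carry chondroitin sulfate chains and bind hyaluronan through their N-terminal domain, and link proteins such as Hapln1 stabilize that bond, which gives large hydrated aggregates. Decorin, biglycan, lumican and fibromodulin are small proteoglycans that bind collagen fibrils and affect how fibrils assemble, and CD44 is the main cell surface receptor for hyaluronan. In arteries and veins, versican and hyaluronan are known components of the matrix that fills a thickening intima.

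Between the AVF and sham groups, 6 of the 10 genes were differentially expressed (DEG: adjusted p value under 0.05 together with a 2-fold or larger change), and all 6 had higher expression in the AVF. These were Acan, Has1, Vcan, Lum, Bgn and Fmod, whose log2 fold changes ran from 1.15 to 2.48. Among all 15912 tested genes, 3.37% were DEG with higher expression in the AVF and 1.4% were DEG with lower expression, and none of the 10 genes was among the latter. Cd44 also rose in the AVF, by 1.54-fold, and Dcn, Has2 and Hapln1 did not pass the test. Acan and Has1 exceeded the filter of 1 CPM in AVF samples only, so a difference was built into their passing it, and they lend no support to the count. Of the 8 genes that exceeded it in both groups, 4 were DEG with higher expression, with log2 fold changes up to 1.37 and a median of 0.89, beside -0.01 for all tested genes. Without any filter, Acan and Has1 were again DEG (adjusted p = 0.0261 and 0.0104). Differences were tested against the spread between mice by the quasi-likelihood test of edgeR, and p values were corrected for all tested genes (Benjamini-Hochberg). In RNA from vein tissue, fewer cells of a type and less RNA per cell cannot be told apart.

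The libraries held 15177854 to 22717370 counts. In AVF female 1, 46.0% of counts fell on ribosomal RNA genes, beside 2.39% to 12.6% in the other libraries. Levels are in normalized CPM, which are counts scaled to a common library size (CPM) after TMM normalization, the trimmed mean of M values. A gene with 3 counts had 0.127 to 0.324 normalized CPM, which was taken as the limit of detection, and this limit covers counting error only. Markers of smooth muscle (7 genes) and endothelium (7 genes) were present in every sample and none of them was called between the groups. Brown fat markers were lower in AVF, with 4 of 6 DEG, a median log2 fold change of -2.35 and summed levels of 14.9 to 209 normalized CPM in AVF and 95.9 to 1499 in sham. The 6 neuron markers, none of which passed the test, had a median of -1.01 and summed levels of 106 to 566 and 239 to 948, respectively. The part of either tissue in the results of the 10 genes was not tested. AVF male 2 and AVF female 2 stood apart in the hepatocyte markers, with summed levels of 3923 and 9745 normalized CPM beside 532 to 2705 in the other AVF samples and 587 to 1486 in sham, where Cyp2e1 alone had a mean of 1020.0. The comparison of AVF with sham was also made without these 2 libraries. The same 6 of the 10 genes were DEG with higher expression, beside 363 of all 15865 genes tested.

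The stretches upstream of 3 of the genes are shown because these genes, Lum, Vcan and Bgn, had the lowest p values of the 6 DEG. They are the 250 bases before the start of the canonical transcript, read from GRCm39 with GENCODE M39 and written 5′ to 3′ on the strand of the gene. Lum lies at chr10:97400990-97408577 on the + strand, Vcan at chr13:89803431-89890814 on the - strand and Bgn at chrX:72527208-72539541 on the + strand, and the windows are chr10:97400740-97400989, chr13:89890815-89891064 and chrX:72526958-72527207, none of which overlaps an annotated exon. Capitals mark a GC box (GGGCGG on either strand).
Lum: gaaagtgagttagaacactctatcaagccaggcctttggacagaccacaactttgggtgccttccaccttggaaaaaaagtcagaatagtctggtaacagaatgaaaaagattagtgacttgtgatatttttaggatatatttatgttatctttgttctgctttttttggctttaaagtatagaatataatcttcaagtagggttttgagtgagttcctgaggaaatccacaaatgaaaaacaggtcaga
Vcan: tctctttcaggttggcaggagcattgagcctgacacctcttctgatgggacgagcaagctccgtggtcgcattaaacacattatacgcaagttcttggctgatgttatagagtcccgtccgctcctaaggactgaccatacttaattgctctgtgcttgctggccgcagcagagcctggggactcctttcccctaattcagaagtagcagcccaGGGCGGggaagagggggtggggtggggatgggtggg
Bgn: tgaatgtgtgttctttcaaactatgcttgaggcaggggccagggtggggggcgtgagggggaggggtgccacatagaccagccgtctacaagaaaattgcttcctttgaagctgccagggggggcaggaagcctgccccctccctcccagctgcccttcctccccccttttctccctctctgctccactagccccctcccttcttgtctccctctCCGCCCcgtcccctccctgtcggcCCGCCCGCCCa
Base composition differed among the 3 windows, with 35.6% G and C for Lum, 55.6% for Vcan and 64.0% for Bgn. Bgn held 3 GC boxes, of which 2 share bases, Vcan held 1 and Lum held none, and 36.3% of 21770 protein-coding genes held at least 1 in a window of the same length. The letters of a TATA box (TATAAA), an AP-1 site (TGANTCA), a TEAD site (GGAATG) and a SMAD site (CAGACA) were searched on both strands too, and none was found in the 3 windows. These letters were present in 11.9%, 6.17%, 12.1% and 15.6% of all windows, respectively.

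Of the hyalectans, versican was the more abundant per length and rose in the AVF. Vcan had 176, 133 and 182 normalized CPM in AVF males 1 to 3 and 162, 143 and 225 in AVF females 1 to 3. In sham, it had 80.5, 68.1 and 88.3 in the males and 48.4, 47.5 and 61.3 in the females. Every AVF sample was above every sham sample, and the lowest AVF sample, AVF male 2, was 1 of the 2 with high hepatocyte markers. Expression rose 2.59-fold, with a log2 fold change of 1.37 ± 0.17 (SE, n = 6 AVF and 6 sham, adjusted p = 0.000543). Without AVF male 2 and AVF female 2 the log2 fold change was 1.51.

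Aggrecan, the large proteoglycan of cartilage, had the largest fold change of the 10 genes at the lowest level. Acan (chr7:78702964-78764847, + strand) had 0.744, 0.877 and 1.54 normalized CPM in AVF males and 0.54, 1.65 and 1.27 in AVF females, and 0.0473, 0.382, 0.212, 0.366, 0.17 and 0 in the 6 sham samples. The groups did not overlap, but the values rest on 127 counts over the 6 AVF libraries and 25 over the 6 sham libraries, and only 4 sham libraries had more than 3 counts. The lowest AVF value, in AVF female 1, was 5 counts, beside 8 in sham male 2, 7 in sham female 1 and 5 in sham male 3. Its place above the sham samples thus depends on the scaling of AVF female 1, in which 46.0% of counts fell on ribosomal RNA genes. The log2 fold change was 2.48 ± 0.58 (SE, n = 6 and 6, adjusted p = 0.0178). Of 8 chondrocyte markers, Col2a1, Col9a1, Matn1 and Matn3 were below the filter, and 1 of the 4 tested, Chad, was called. The summed level of the 8 was 13.1 to 26.0 normalized CPM in AVF and 12.1 to 27.0 in sham. Most of this sum was Comp, with means of 12.2 in AVF and 14.3 in sham, and the means of Chad were 1.40 and 0.0255.

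The link protein gene Hapln1 (chr13:89686581-89759950, + strand), which lies next to Vcan on the same chromosome, had a median of 2.10 normalized CPM in AVF and 2.37 in sham. Its lowest and highest values were 1.51 and 5.65 in AVF and 1.15 and 2.88 in sham, so the groups overlapped. The highest value came from AVF female 2. The log2 fold change was 0.31 ± 0.32 (SE, n = 6 and 6, adjusted p = 0.54), and it was -0.03 without that library.

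Of the synthases, Has1 rose and Has2 did not pass the test. Has1 (chr17:18063585-18075467, - strand) had 2.06, 0.974 and 1.13 normalized CPM in AVF males, 1.94, 1.76 and 0.986 in AVF females, 0.237, 0.573 and 0.0847 in sham males and 0.314, 0.551 and 0.242 in sham females. The lowest AVF value was above the highest sham value, and these levels rest on 152 counts over the AVF libraries and 43 over the sham libraries. The log2 fold change was 2.11 ± 0.42 (SE, n = 6 and 6, adjusted p = 0.00715). Has2 (chr15:56528342-56557999, - strand) had higher levels, from 1.73 to 7.27 normalized CPM with a median of 4.49 in AVF, and from 1.74 to 5.51 with a median of 3.71 in sham. The groups overlapped almost wholly, with a log2 fold change of 0.30 ± 0.33 (SE, n = 6 and 6, adjusted p = 0.577). The difference between the fold changes of Has1 and Has2 was not tested. Has3, the remaining synthase, is given with the pathway genes.

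Mesothelium is known to make hyaluronan, and its markers varied over the same samples. Their summed level (7 genes, none at 0 in all samples) was 7.11 to 68.8 normalized CPM in AVF and 1.93 to 43.1 in sham. It was highest in AVF male 1, which also had the highest Has1 and Has2 values. In sham it was highest in sham female 2, where Has1 was 0.551 and Has2, at 1.74, was the lowest in sham. AVF female 1 had a sum of 13.4 with 1.94 for Has1. None of the 7 passed the test, with a median log2 fold change of 1.78. Their part in the Has1 result was not tested.

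Among the SLRP, Bgn, Lum and Fmod rose and Dcn did not pass the test. Lumican, which binds collagen and limits the width of fibrils, had the smallest SE of the 6 DEG. Lum ranged from 815 to 1086 normalized CPM with a median of 912 in AVF, and from 266 to 462 with a median of 384 in sham. The groups were far apart, with a fold change of 2.45 (log2 1.29 ± 0.13, SE, n = 6 and 6, adjusted p = 0.000194). Bgn ranged from 2228 to 3642 normalized CPM with a median of 2583 in AVF and from 816 to 1605 with a median of 1072 in sham. Biglycan is bound to collagen and also signals through Toll-like receptors when it is soluble. Its groups did not overlap, and it rose 2.36-fold (log2 1.24 ± 0.19, SE, n = 6 and 6, adjusted p = 0.0020).

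Fibromodulin, a collagen-binding SLRP with keratan sulfate chains, was the least certain of the 6 DEG. Fmod (chr1:133964992-133976015, + strand) had 92.2, 126 and 166 normalized CPM in AVF males and 126, 61.2 and 182 in AVF females, and 33.9, 97.3 and 72.0 in sham males and 59.5, 46.9 and 30.4 in sham females. Of the AVF samples, 4 were above the highest sham sample, and AVF male 1 and AVF female 2 were not. The log2 fold change was 1.15 ± 0.31 (SE, n = 6 and 6, adjusted p = 0.0311). Leaving out AVF female 3, AVF male 2, AVF male 3, sham female 2, sham female 3 or sham male 1 ended the call, with adjusted p = 0.0602, 0.0515, 0.0581, 0.0633, 0.0546 and 0.065, respectively.

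Decorin, which binds collagen and sequesters TGF-β, was the most abundant of the 10 genes in normalized CPM in sham. Dcn (chr10:97315275-97358155, + strand) ranged from 2722 to 3215 normalized CPM with a median of 2970 in AVF and from 1992 to 3897 with a median of 2304 in sham. The AVF samples lay within the range of the sham samples, in which males 2 and 3 had the highest values of all 12. The log2 fold change was 0.12 ± 0.17 (SE, n = 6 and 6, adjusted p = 0.665).

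**Figure D1:**
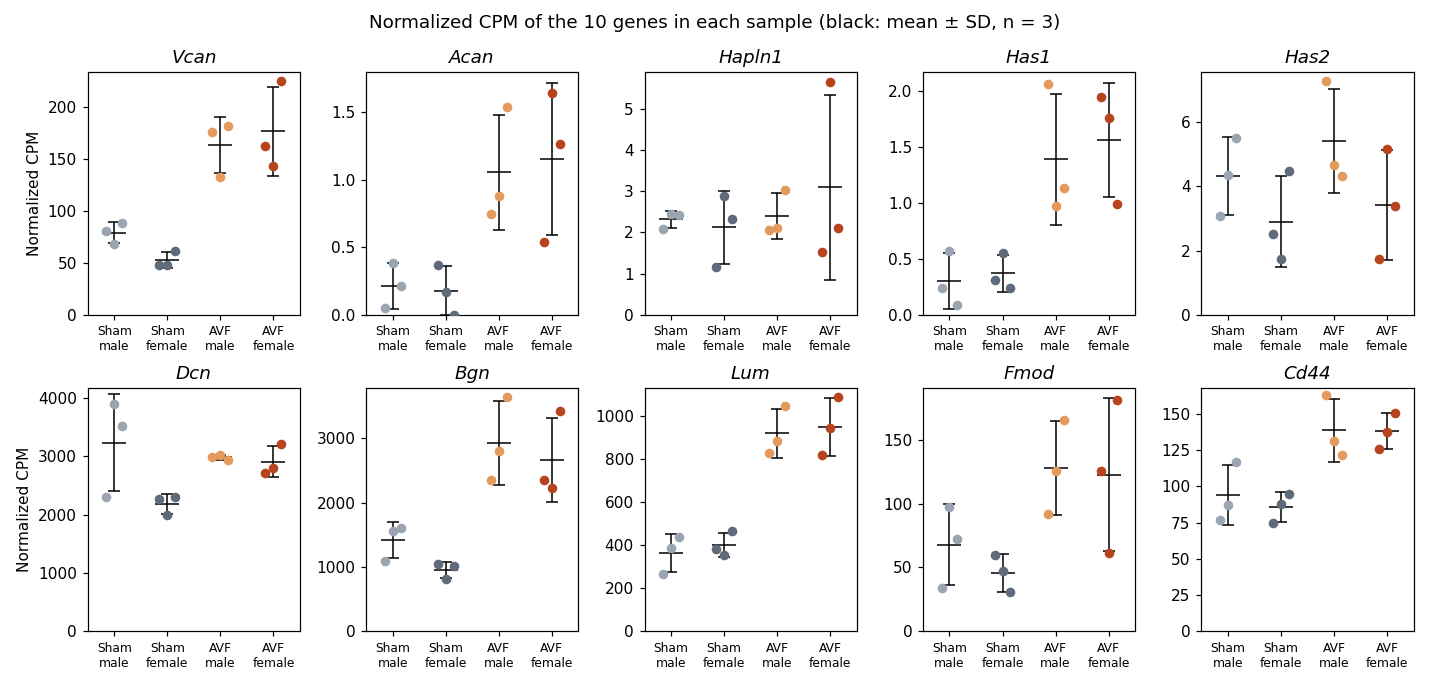
Normalized CPM (y axes, from 0) of the 10 genes in each of the 12 samples by operation and sex (x axes). Each point is 1 mouse and black bars are the mean ± SD of 3 mice. Every AVF sample lies above every sham sample for Vcan, Acan, Has1, Bgn, Lum and Cd44, and the groups overlap for Fmod, Dcn, Has2 and Hapln1.

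The coding sequences of Dcn, Bgn, Lum and Fmod are of similar length (1062, 1107, 1014 and 1128 bases), so the make-up of the 4 SLRP was described per kilobase of coding sequence. Dcn made up 62.7% ± 1.96 (SD, n = 6) of the sum of the 4 levels in sham and 44.2% ± 3.76 (SD, n = 6) in AVF. Bgn made up 26.5% ± 1.56 in sham and 39.6% ± 3.70 in AVF, and Lum 9.62% ± 2.42 and 14.5% ± 1.01, respectively (SD, n = 6 each). Fmod was the smallest share in both groups, 1.21% ± 0.334 in sham and 1.72% ± 0.462 in AVF (SD, n = 6 each). For Dcn, Bgn and Lum, the ranges of the 2 groups did not overlap. The ratio of Bgn to Dcn in normalized CPM, which does not depend on the scaling between libraries, was 0.40 to 0.477 in the 6 sham samples and 0.783 to 1.24 in the 6 AVF samples. These shares and ratios restate the fold changes above and were not tested.

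**Figure D2:**
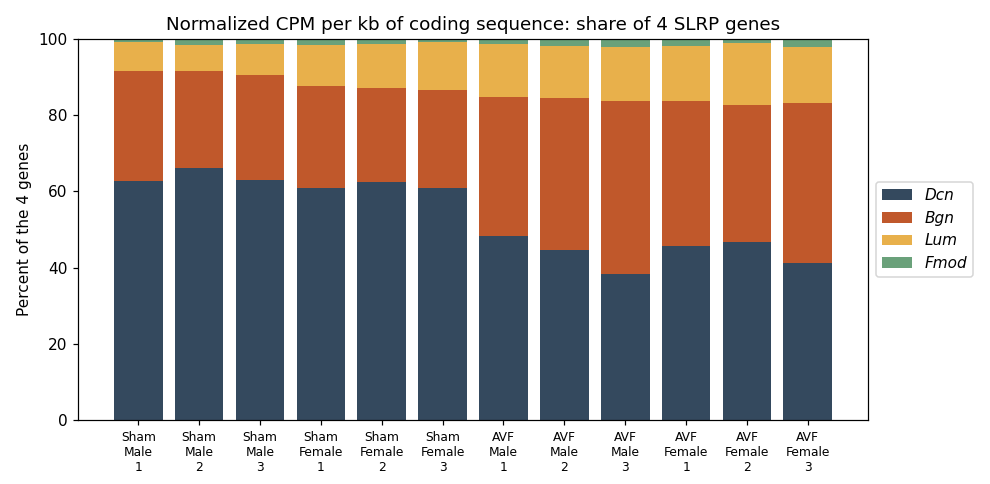
Share of Dcn, Bgn, Lum and Fmod (percent of the sum of their normalized CPM per kilobase of coding sequence, y axis) in each of the 12 samples (x axis). Dcn is 60.8% to 66.2% of the sum in sham samples and 38.3% to 48.4% in AVF samples.

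The receptor gene Cd44 (chr2:102641486-102732010, - strand) rose by less than 2-fold, so it was not a DEG. It had 163, 132 and 122 normalized CPM in AVF males, 126, 137 and 151 in AVF females, 77.1, 87.5 and 117 in sham males and 74.5, 87.7 and 95.1 in sham females. The lowest AVF value, in AVF male 3, was just above the highest sham value, in sham male 3. The log2 fold change was 0.62 ± 0.11 (SE, n = 6 and 6, adjusted p = 0.00466). With Cd44, 7 of the 10 genes had an adjusted p value under 0.05 and a higher level in AVF, and 8.63% of all tested genes did. In 6 of the 10 genes every AVF sample was above every sham sample, and this was so for 4.55% of all tested genes. Both counts include Acan and Has1, which exceeded the filter in AVF samples only and lend no support to them. The other genes without overlap were Vcan, Bgn, Lum and Cd44. CD44 is abundant on leukocytes, whose markers (10 genes, none at 0 in all samples) had a summed level of 869 to 1219 normalized CPM in AVF and 444 to 769 in sham. Of these 10 markers, the 5 with an adjusted p value under 0.05 were the myeloid genes Cd68, Adgre1, Csf1r, Itgam and Lyz2, all higher in AVF by less than 2-fold. Lyz2 made most of the sum, with means of 605 normalized CPM in AVF and 339 in sham, and the log2 fold changes of the neutrophil gene S100a8 and the T cell gene Cd3e, which did not pass the test, were -1.05 and -0.04. Their part in the Cd44 result was not tested.

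**Figure D3:**
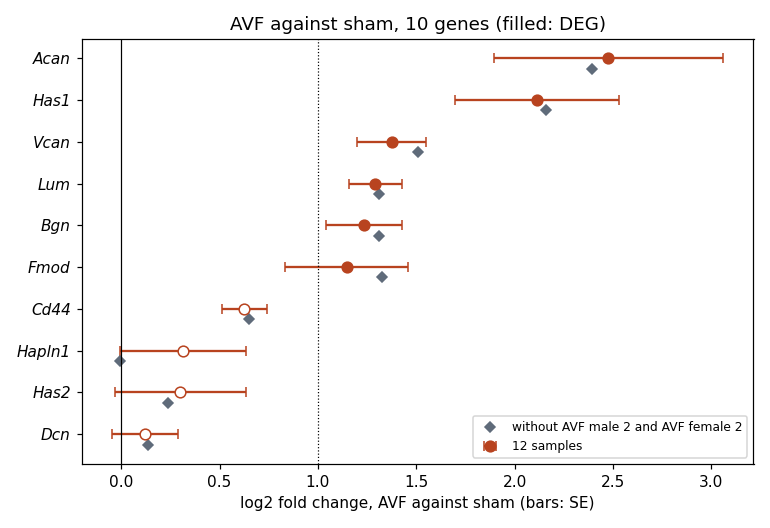
Log2 fold change of each of the 10 genes in AVF against sham (x axis) with its SE from all 12 samples (circles, filled for DEG) and without AVF male 2 and AVF female 2 (diamonds). The dotted line marks a 2-fold change. Acan and Has1 are farthest to the right at 2.48 and 2.11, and Dcn is at 0.12.

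Fibroblasts are known producers of SLRP and versican, and most of the fibroblast markers examined also passed the test with higher levels in AVF. Of 8 fibroblast markers, 6 had an adjusted p value under 0.05 with a higher level in AVF, and 4 of these were DEG: Col1a1, Col1a2, Col3a1 and Mfap5. The collagens among them encode the fibrils that SLRP bind. Pdgfra, a growth factor receptor, and Cd34, a surface glycoprotein, had log2 fold changes of 0.04 and 0.03 (adjusted p = 0.90 and 0.897). The summed level of the 8 markers was 27389 to 43758 normalized CPM in AVF and 11002 to 23311 in sham. Most of this sum came from Col1a1, Col1a2 and Col3a1. Their means were 8287, 10093 and 14816 normalized CPM in AVF and 3284, 4435 and 6590 in sham, respectively. All 6 markers of cycling cells were DEG with higher expression in AVF, with summed levels of 161 to 322 and 41.6 to 76.0, respectively. The part of either list in the results of the 10 genes was not tested.

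**Figure D4:**
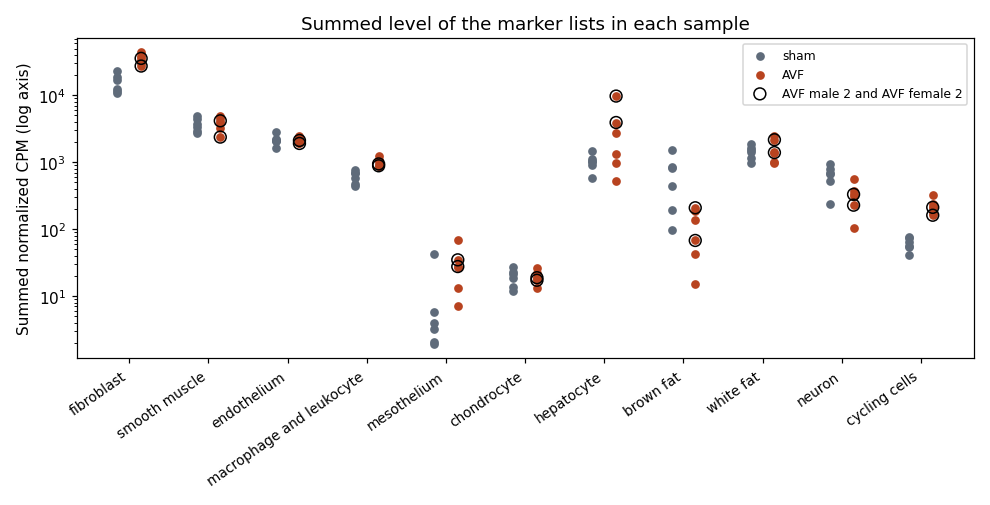
Summed normalized CPM (y axis, log scale) of each list of marker genes (x axis) in the 6 sham and 6 AVF samples, with circles around AVF male 2 and AVF female 2. Fibroblast, macrophage and leukocyte, and cycling cell sums are higher in each AVF sample than in each sham sample, and the hepatocyte sum is highest in AVF female 2 at 9745. Most of the fibroblast sum is Col1a1, Col1a2 and Col3a1.

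Per kilobase of the canonical transcript, the mean levels in AVF ran from 1157 ± 249 (SD, n = 6) normalized CPM per kb for Bgn through 483 ± 28.6 for Dcn, 379 ± 46.2 for Lum, 40.2 ± 14.4 for Fmod, 24.5 ± 2.81 for Cd44 and 13.5 ± 2.60 for Vcan to 0.887 ± 0.371 for Has2, 0.704 ± 0.238 for Has1, 0.466 ± 0.255 for Hapln1 and 0.145 ± 0.0590 for Acan (SD, n = 6 each). Fmod and Cd44 could not be ordered by their ranges over the 6 AVF samples, nor could Has2 and Has1 or Has1 and Hapln1. In sham, the same order held except that Hapln1, at 0.376 ± 0.0989, had a higher mean than Has1, at 0.159 ± 0.0918, with overlapping ranges (SD, n = 6 each). The place of Dcn depends on its length, since the annotated canonical transcript has 6104 bases and a coding sequence of 1062. Per kilobase of coding sequence, Dcn was first in sham (2556 ± 741 beside 1074 ± 288 for Bgn) and its range overlapped that of Bgn in AVF (2778 ± 164 beside 2530 ± 545, SD, n = 6 each). Counts per gene do not separate the isoforms of Vcan or Cd44, which were not analysed here.

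In females against males, none of the 10 genes was called within the AVF group or within the sham group, at an adjusted p value under 0.05 and a difference of at least 1.5-fold. Among all tested genes, 5 were called in AVF (0.0314%) and 9 in sham (0.0566%), by edgeR's quasi-likelihood test over the 4 groups, while DESeq2 called 47 and 154. With the number in the sample labels as a block, 3 genes were called in AVF by edgeR and again none of the 10. At an unadjusted p value under 0.05 by edgeR's quasi-likelihood test over the 4 groups, 752 of 15912 genes differed between the sexes in AVF and 1498 in sham. None of the 10 was among the former and 3 were among the latter, all lower in females. These were Vcan (mean 52.4 ± 7.73 normalized CPM in females and 78.9 ± 10.2 in males, SD, n = 3 each), Dcn (2190 ± 172 and 3239 ± 832) and Bgn (958 ± 124 and 1420 ± 280). Their log2 differences were -0.59 ± 0.19, -0.56 ± 0.19 and -0.57 ± 0.23 (SE), and with adjusted p values of 0.415, 0.429 and 0.504 by edgeR's quasi-likelihood test they did not pass the correction. For Vcan and Bgn the 3 sham females were all below the 3 sham males, and for Dcn the sexes overlapped. With single sham libraries left out, 0 to 3 of the 10 genes had an unadjusted p value under 0.05 by the same edgeR test. None did without sham female 2 or without sham male 3.

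The test of whether the AVF acted differently in females and males called 0% of the tested genes, with 813 genes at an unadjusted p value under 0.05 by edgeR's quasi-likelihood test and 4 called by DESeq2. Of the 10 genes, only Vcan had an unadjusted p value under 0.05 (0.025, adjusted p = 0.931 by the same edgeR test). Its interaction was 0.70 ± 0.27 on the log2 scale (SE), with means of 177 ± 42.7 and 52.4 ± 7.73 normalized CPM in AVF and sham females and 164 ± 26.9 and 78.9 ± 10.2 in AVF and sham males (SD, n = 3 each).

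Around the 10 genes, 105 other genes of the same pathways were counted in 8 lists, of which 96 were tested. In AVF, 12 of these 96 were DEG with higher expression and 2 with lower, beside 3.37% and 1.4% of all tested genes. The median log2 fold change of the 96 was 0.30. Itih1, Habp2, Ambp, Chad and Cemip exceeded the filter in AVF samples only and Bcan in sham samples only, so they lend no support to these counts. Without the threshold on fold change, 27 of the 96 were higher and 4 lower. Of all 15912 tested genes, 1373 (8.63%) were higher and 817 lower. When AVF male 2 and AVF female 2 were left out, 7 were DEG with higher expression and none with lower. Of all 15865 genes tested in that setting, 363 were DEG with higher expression and 112 with lower. The lists were chosen with results of these samples known, and their counts are a description.

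Among 10 tested SLRP beyond the 4 above, Chad was a DEG with higher expression. Chondroadherin, the product of Chad, is a leucine-rich protein of cartilage that binds collagen and integrins. Chad had 138 counts over the AVF libraries and 3 over the sham libraries, a ratio of 54.5 with a 95% exact binomial counting interval of 18.3 to 268, and its AVF values ran from 0.439 to 3.24 normalized CPM. It exceeded the filter in 3 AVF samples and in no sham sample, and without a filter it was again a DEG (edgeR adjusted p = 0.00167). Aspn, an SLRP related to decorin, also passed the test at less than 2-fold, with 281 to 408 normalized CPM in AVF and 155 to 246 in sham (log2 fold change 0.85, edgeR adjusted p = 0.00176). Ecm2 was lower in AVF at less than 2-fold (log2 fold change -0.59, edgeR adjusted p = 0.0453). Ogn, the most abundant of the list, had 671 to 783 normalized CPM in AVF and 635 to 933 in sham and did not pass the test. The median log2 fold change of the list was 0.28.

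The genes of hyaluronan turnover and recognition had 2 DEG with higher expression and 1 with lower among 11 tested, with a median log2 fold change of 0.28. Cemip, which encodes a hyaluronan-binding protein needed for hyaluronan breakdown, had 1.09 to 3.90 normalized CPM in AVF and 0 to 0.388 in sham (log2 fold change 3.87 ± 0.62, SE, edgeR adjusted p = 0.00226). Hmmr, the hyaluronan-mediated motility receptor that is also a mitotic spindle protein, had 11.0 to 27.0 in AVF and 2.16 to 4.81 in sham (2.30 ± 0.26, adjusted p = 0.00031). Both had groups that did not overlap, but Cemip exceeded the filter in AVF samples only, and without a filter it was again a DEG (adjusted p = 0.00202). The part of cycling cells, whose 6 markers are given above, in the Hmmr result was not tested. Has3, the third synthase, was lower, with 6.07 normalized CPM in AVF male 1, 1.03 to 3.02 in the other AVF samples and 4.62 to 10.0 in sham (-1.44 ± 0.38, edgeR adjusted p = 0.0266). Has3 did not pass the test without AVF male 2 and AVF female 2 together, nor without AVF male 3, sham female 2 or sham male 1. Lyve1, the hyaluronan receptor of lymphatic endothelium, had the highest mean of the list over all 12 samples and did not pass the test (0.77, adjusted p = 0.0657 by edgeR).

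Of the hyalectans, link proteins and hyaluronan binders not among the 10, 12 were tested, and 5 were DEG with higher expression. These were Itih4, Ambp, Itih3, Itih1 and Habp2, which encode chains of inter-alpha-trypsin inhibitor and hyaluronan-binding proteins that the liver secretes into plasma. The highest values of Ambp were 38.1 normalized CPM in AVF male 2 and 119 in AVF female 2, and no other sample exceeded 0.227. Itih4 went beyond these libraries, with 134 normalized CPM in AVF male 1 beside 101 in AVF male 2, although the hepatocyte marker Alb was at 0.572 in AVF male 1 and 1853 in AVF male 2. Ambp, Itih1 and Habp2 exceeded the filter in those 2 AVF samples only. Without these 2 libraries, Itih4 was the only DEG of the 5 and Itih1 and Habp2 turned negative. Leaving out sham female 1 or sham female 2 alone also ended the calls of Ambp, Itih3, Itih1 and Habp2, and leaving out AVF male 2 or AVF female 2 alone ended those of the last 3. Itih3, Itih1 and Habp2 kept the call under 12, 13 and 11 of 22 alternatives, and the replicate block ended all 3 (adjusted p = 0.161, 0.0574 and 0.106). The list had a median log2 fold change of 1.17 with all samples and 0.00 without the 2 libraries. Bcan, a hyalectan of the nervous system, was a DEG with lower expression (0.0572 to 1.08 normalized CPM in AVF and 0.142 to 3.88 in sham, edgeR adjusted p = 0.048). It exceeded the filter in sham samples only, and it did not pass the test under 12 of 22 alternatives, among them no filter (adjusted p = 0.0643) and 9 of the 12 single libraries left out (all but AVF female 1, sham male 1 and sham male 3), with log2 fold changes of -2.94 to -2.05 throughout. The neuron markers were also lower in median, as given above, and their part in the Bcan result was not tested. Itih5, the most abundant of the list, had 134 to 183 normalized CPM in AVF and 140 to 204 in sham.

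Enzymes that make the sugars and chains changed by less than 2-fold where they passed the test, except Chsy3. Of 11 precursor enzymes, 3 passed the test with higher levels and none was a DEG. These were Ugdh, which makes UDP-glucuronate for hyaluronan and chondroitin, Pgm3 and Papss2, at log2 fold changes of 0.69, 0.59 and 0.48. Ugp2, the most abundant, had a log2 fold change of -0.03. Of 21 tested enzymes of chondroitin and dermatan sulfate assembly, 5 passed with higher levels and 1 of them, the chondroitin synthase Chsy3, was a DEG. Chsy3 had 4.55 to 7.70 normalized CPM in AVF and 1.89 to 3.56 in sham (log2 fold change 1.25 ± 0.20, SE, edgeR adjusted p = 0.00231). The others were Chsy1, Xylt1, Chpf and Dse, at 0.56 to 0.66. Csgalnact2, with the highest level of that list, did not pass the test (0.31). In the keratan sulfate list, 1 of 4 tested genes, B4galt1, passed at 0.43.

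Of 20 tested heparan sulfate and cell surface proteoglycans, 6 passed with higher levels, of which 2 were DEG, and 1 was lower. Esm1, the circulating dermatan sulfate proteoglycan endocan of activated endothelium, had 7.04 to 44.3 normalized CPM in AVF and 1.04 to 3.30 in sham (log2 fold change 3.81 ± 0.47, SE, edgeR adjusted p = 0.000426). Prg4, or lubricin, had 13.4 to 54.2 in AVF and 8.21 to 18.4 in sham (1.38 ± 0.34, adjusted p = 0.0213), and it narrowly did not pass the test without AVF male 2 and AVF female 2 or with the replicate block (adjusted p = 0.053 and 0.0509), at log2 fold changes of 1.31 and 1.27. Hspg2, the basement membrane proteoglycan perlecan and the most abundant of the list, rose by 0.65 on the log2 scale. Among 7 proteases that cut versican and aggrecan, Adamts4 was a DEG, with 3.62 to 16.4 normalized CPM in AVF and 2.08 to 5.87 in sham (1.45 ± 0.33, SE, edgeR adjusted p = 0.0155). AVF male 3 was the 1 AVF sample within the range of sham. Adamts15 passed the test at 0.78, and Adamts5, the most abundant, did not (0.30).

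**Figure D5:**
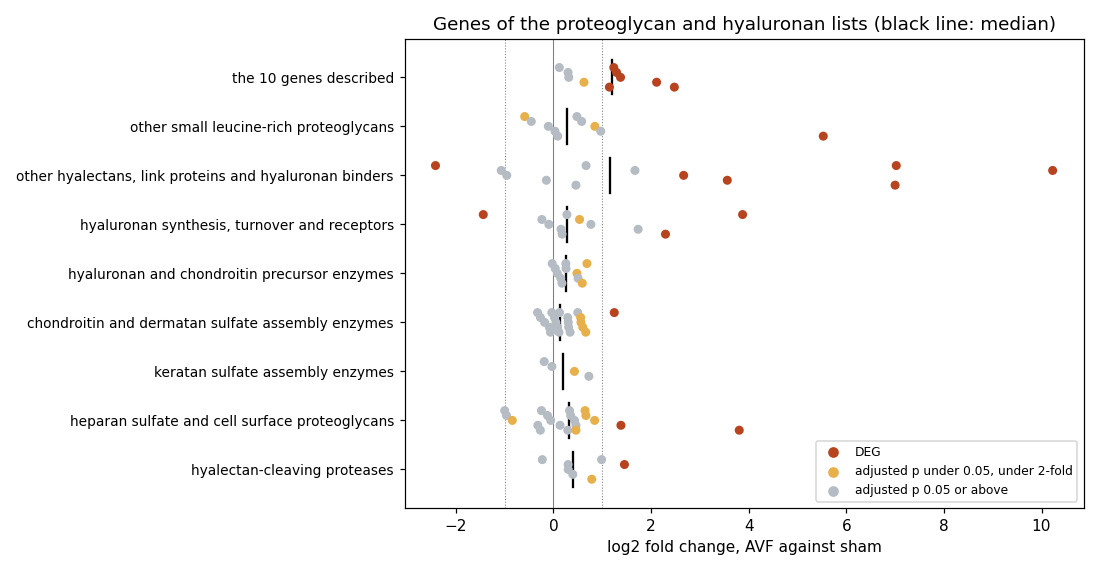
Log2 fold change in AVF against sham (x axis) of the 10 genes and of each tested gene in the 8 pathway lists (y axis), colored by the test, with the median as a black line. The median of the 10 genes is 1.19, and the list medians are 0.12 to 0.40 except for the hyaluronan binders at 1.17. Acan and Has1 exceeded the filter in AVF samples only, and the median of the other 8 genes is 0.89. Without AVF male 2 and AVF female 2, the median of the binders is 0.00.

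Within groups, the genes whose deviations from the AVF and sham means were most like those of each DEG were found by Pearson's r over the 12 samples, as a description. For Bgn these were Septin7 (r = 0.972), Ikbip (0.962) and Sparc (0.96), and for Lum they were Ltb4r1 (0.943), Mrc2 (0.907) and Ddx42 (0.907). For Fmod they were Cnn1 (0.984), Msrb3 (0.958) and Csrp1 (0.957), and for Vcan Wwp1 (0.955), Gm44950 (0.932) and Arcn1 (0.929). Acan was closest to Klf9 (0.904), Rpl15-ps3 (0.876) and Bdh2 (0.851), and Has1 to 1500015A07Rik (0.877), Cacul1 (0.836) and Dnajc21 (0.823). Each set is the top of all tested genes, over few samples that share their libraries.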

How the data were processed

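Poly(A) RNA of 12 mouse IVC was sequenced in stranded, paired-end libraries. Reads were trimmed by the authors (PRINSEQ, Trimmomatic 0.39) and mapped to GRCm39 by STAR 2.7.7a with the Ensembl annotation. The authors deposited the expected counts of RSEM 1.3.3, which counted by strand and were neither normalized nor filtered. Expected counts divide reads among similar genes, so 5.72% to 7.75% of values per library had a decimal part. Here, values were rounded and scaled by TMM in edgeR 4.0.16 (R 4.3.3). Genes above 1 CPM in 2 or more samples were tested by the quasi-likelihood test, in place of the exact test of the study. Sexes were compared in 1 fit of the 4 groups. Names, positions and lengths came from GENCODE M39 on GRCm39, a later release than that of the authors, in which 54749 identifiers had a name. On simulated counts for AVF against sham with 200 of 15912 genes changed 4-fold, 182 were recovered and 3 others called.

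The 10 genes, the pathway lists and the marker lists were chosen with earlier results of these data known. Named were all 10 genes, up to 5 DEG of each pathway list by lowest p value and its most abundant gene, and for each DEG of the 10 the 3 genes closest by Pearson's r. The other genes named, which passed the test at less than 2-fold, are markers, or are Bcan, were named after their values were seen. Alternatives were DESeq2 1.42.0, edgeR's exact test, RLE size factors, other filters (more than 12 counts in all, or none), no fold threshold, robust dispersions, a sex covariate, the replicate block, removal of ribosomal RNA genes, and leaving out libraries. Deviations from the group means were correlated between mice with the same number in the labels, without a test. The 3 female and male AVF pairs had r = 0.243, 0.696 and 0.488, and the sham pairs had 0.188, -0.0395 and 0.181. The value of 0.696 is that of AVF male 2 and AVF female 2. The blocked fit is given beside the comparison of the sexes in AVF. The chi-square over its degrees of freedom was 36.8 to 613 between libraries of a group, so no 2 libraries were the same. No proteins were printed, and the ultrasound data and microarray were not analysed here.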

Additional observations from a re-analysis of the deposited data

Results flagged for a closer look

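In 59 groups of samples searched, those of the 10 genes and of the named pathway genes, the highest or lowest sample of the 6 in a group lay far from the other 5 (Dixon's ratio above its 95% critical value) in 5 cases. That value would mark about 1 in 20 independent groups of normal values. The groups here share libraries and most of the cases were in AVF female 2, so the number cannot be weighed against that rate. Hapln1 in AVF female 2 had 5.65 normalized CPM beside 1.51 to 3.04 in the other AVF samples. In the same library, Itih4 had 320 (26.2 to 134 in the others), Ambp 119 (0 to 38.1) and Itih3 110 (2.17 to 23). The summed hepatocyte markers were also highest there. The 134 of Itih4 was in AVF male 1, where the hepatocyte marker Alb was at 0.572. Esm1 in sham male 3 had 3.3 normalized CPM beside 1.04 to 1.48 in the other sham samples. No cause was tested.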

How the results depend on the processing

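Of the 10 genes, Vcan, Acan, Bgn, Lum and Has1 remained DEG with higher expression, and Cd44 kept an adjusted p value under 0.05 at less than 2-fold, under all 22 alternatives. Fmod was a DEG under 16 of 22, so the count of 6 became 5 to 6 with single libraries left out, and no gene of the 10 was a DEG with lower expression under any alternative (0 to 0). Hapln1 did not pass the test under any, and its log2 fold change was -0.0077 without AVF male 2 and AVF female 2 and -0.028 to 0.449 with single libraries left out (-0.028 without AVF female 2). Without these 2 libraries Itih1 was at -0.83 and Habp2 at -1.80, and 7 pathway genes were DEG with higher and 0 with lower expression, beside 12 and 2. Ugp2, at -0.03, was at -0.115 to 0.0479 with single libraries left out, and above 0 without AVF female 1, AVF male 2, sham female 2 or sham male 1. Without the fold threshold, 27 pathway genes were higher and 4 lower, and 1373 and 817 of all genes, beside 536 and 223 DEG. The pathway genes with lower expression numbered 1 with the filter of 12 counts or with none, and 0 to 4 with single libraries left out (those with higher expression 8 to 13). DESeq2 called 408 and the exact test 361 of all genes lower, and 112 were lower without the 2 libraries. With single libraries left out, 352 to 608 genes were higher (352 without sham female 2) and 118 to 415 lower (415 without AVF female 1). In the sexes, DESeq2 called 47 genes in AVF, 154 in sham and 4 for the interaction, and single libraries left 5 to 8, 8 to 23 and 0 to 0, with none of the 10 called by either tool. The replicate block by sex and number changed no call among the 10 genes in AVF against sham, where the 6 pairs had r = -0.144 to 0.175. Whether the mice of a pair shared more than a number is not given by the labels and was not tested. The block gave 3 called genes in AVF and 13 in sham, beside 5 and 9. Scaling by RLE moved the median of all genes from -0.01 to 0.00. Bcan kept its call under 10 of 22 alternatives. The causes of these changes were not tested. Depth limits Acan and Has1, whose sham levels rest on 25 and 43 counts over 6 libraries.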
